A study of Mus musculus with 4 samples.

Results

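The genes described here are targets of p53, the transcription factor that cells use to respond to DNA damage and other stress, measured in kidneys of mice without Usp2 and of their wild-type littermates. They were chosen by name from a list of 10 (Trp53, which encodes p53, and its targets Cdkn1a, Phlda3, Ccng1, Bax, Trp53inp1, Sesn1, Sesn2, Zmat3 and Aen). A gene was taken where a row of the array was annotated with its symbol alone. This found 7 of the 10, out of 19934 genes tested, each with 1 row. Cdkn1a shares its 1 annotated row with 4930567H12Rik and was given no value, and Trp53 and Bax were not analysed here. The level of p53 itself is therefore not part of what follows. Usp2 is a protease that takes ubiquitin chains off its substrate proteins. Whole kidneys came from male C57BL6/N mice at the age of 12 weeks, taken at Zeitgeber time 12, which is 12 h after lights-on. The groups were wild-type (WT) and Usp2 knockout (Usp2-KO), each measured in 2 pools of RNA from 3 mice, and the 6 littermate pairs were kept in step, so that pool 1 of one genotype held the littermates of pool 1 of the other. The labels do not say which part of Usp2 was removed or whether the deletion was limited to some cells.

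In unstressed cells p53 is kept low by Mdm2, a ubiquitin ligase that marks it for the proteasome, together with the related protein Mdm4. Mdm2 is itself a target gene of p53, which closes a feedback loop, and Mdm2 has been reported as a substrate of Usp2. When p53 is released it raises genes that stop the cell cycle (Cdkn1a), favour cell death (Bax, Aen, Trp53inp1), restrain growth signalling (Phlda3, Sesn1, Sesn2) or feed back on p53 itself (Ccng1, Zmat3). In the kidney this programme is known for its part in acute tubule injury. An array reads RNA, so it can show the output of p53 but not the amount or activity of the protein.

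The DNA that p53 binds is a pair of half-sites of 10 bases each, and it was looked for in RefSeq promoter windows (assembly GRCm38.p6, 250 bases before to 50 after a start) because it is the feature by which these genes are thought to share their control. The table of windows matched 5 of the 7 genes, with 7 windows. An exact p53 half-site consensus, which reads the same on both strands, was found in windows of 3 of the 5 genes, Ccng1, Sesn1 and Aen. Of all 27025 genes with windows, 9.55% held it (8.36% of all 32851 windows). Pairs of half-sites were allowed a spacer of at most 13 bases and at most 2 mismatches in all. The C and G of each core had to be kept. Such a pair was found in Ccng1 and Sesn1 (40% of the 5 genes), and in 4.71% of all genes (4.09% of all windows). The stretches are printed on the gene's own strand, those of Ccng1 and Sesn1 for the paired half-sites (in capitals), that of Aen for its single half-site (in capitals), and that of Phlda3 because it is the gene whose RNA differed most between the genotypes and its window held no match. The Ccng1 stretch is chr11:40755287-40755536 (minus strand), that of Sesn1 chr10:41887189-41887438, that of Aen chr7:78895927-78895956 and that of Phlda3 chr1:135765835-135766084 (all plus strand).
Ccng1: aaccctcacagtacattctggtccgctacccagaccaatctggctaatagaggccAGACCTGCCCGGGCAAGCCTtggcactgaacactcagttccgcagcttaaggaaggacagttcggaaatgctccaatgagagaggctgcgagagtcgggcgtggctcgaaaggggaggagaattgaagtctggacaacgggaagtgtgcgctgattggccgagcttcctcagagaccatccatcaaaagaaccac
Sesn1: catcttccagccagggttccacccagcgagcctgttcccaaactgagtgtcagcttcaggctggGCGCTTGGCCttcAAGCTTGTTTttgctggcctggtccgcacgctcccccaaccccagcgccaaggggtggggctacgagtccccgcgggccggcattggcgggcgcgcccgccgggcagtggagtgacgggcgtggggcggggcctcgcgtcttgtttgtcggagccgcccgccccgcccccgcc
Aen: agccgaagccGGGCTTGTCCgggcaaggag
Phlda3: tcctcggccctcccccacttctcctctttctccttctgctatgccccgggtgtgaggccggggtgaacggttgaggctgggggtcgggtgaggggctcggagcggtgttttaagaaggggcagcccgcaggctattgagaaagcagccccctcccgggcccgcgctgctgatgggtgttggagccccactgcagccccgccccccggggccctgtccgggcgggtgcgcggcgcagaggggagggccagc
In Ccng1 the pair begins 195 bases before the start, with a spacer of 0 bases and 1 mismatch. In Sesn1 it begins 186 bases before the second of the starts in the table, with a spacer of 3 bases and 2 mismatches. The half-site of Aen begins 121 bases before the second of its starts. The windows of Phlda3 and Sesn2 hold no exact half-site, which says only that these letters are not there. A match is a description of the sequence and shows no binding.

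Usp2, the deleted gene, checked the labels. Its log2 value was 11.63 and 11.71 in the WT pools and 7.65 and 7.60 in the Usp2-KO pools, and its adjusted p of 2.8e-08 made it the 1 gene of 19934 (0.00502%) to pass an adjusted p of 0.05 by limma, a linear model that shares its estimate of the spread among genes. Values are log2 expression after the authors' RMA normalization, and a difference always means Usp2-KO minus WT. The number of arrays, 4, limits every comparison: with 2 pools against 2, no exact permutation p (two-sided) can be smaller than 0.333. Pools average over their mice, so the spread between pools is not that between animals. None of the 7 genes lies on chromosome 9, where Usp2 lies.

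Phlda3 had the largest difference of the 7 genes. It encodes a small protein with a pleckstrin homology domain that competes with the kinase Akt for membrane lipids and so dampens Akt signalling. Its log2 value was 8.15 in WT pool 1, 8.14 in WT pool 2, 7.81 in Usp2-KO pool 1 and 7.85 in Usp2-KO pool 2. Both Usp2-KO pools lay below both WT pools, and pools of 1 genotype lay close together. The means differed by -0.31 (SE 0.07, 95% confidence interval -0.47 to -0.16), a 1.24-fold lower level in Usp2-KO kidney. The unadjusted p was 0.00157 and the adjusted p 0.286 by limma, so Phlda3 did not pass over all genes. Phlda3 stood at place 102 of 19934 by p. The littermate pools differed by -0.34 (pool 1) and -0.29 (pool 2), and without any 1 pool the difference was between -0.33 and -0.29. With the littermate pools as a block its SE was larger, 0.09, and its limma adjusted p was 0.0842. The block fit gave each gene 91.6 degrees of freedom, where the fit without a block gave 8.87, so these fits differ in more than the pairing. The part of the pairing in the lower adjusted p was not tested. In the block fit 0.768% of all genes passed 0.05 and 0 of the 7 p53 targets did. Over all the alternatives tried its adjusted p was between 0.0842 and 0.622. In bulk tissue, fewer cells that express a gene and less RNA per cell cannot be told apart.

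**Figure D1:**
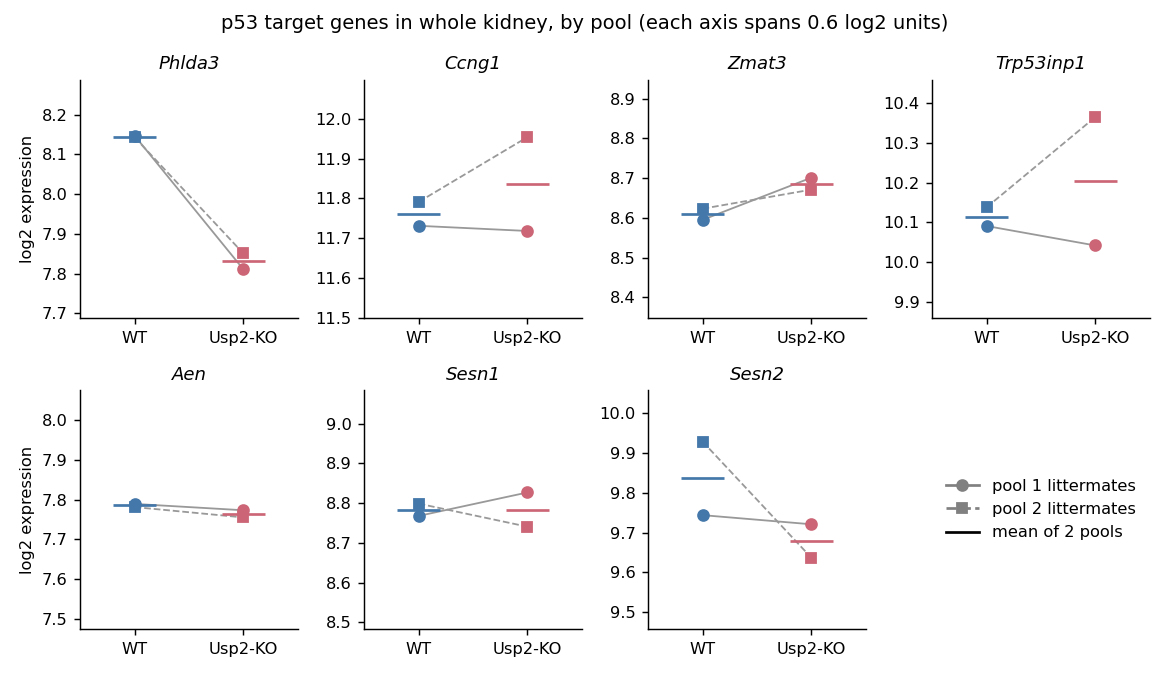
Log2 expression of the 7 p53 target genes in each pool (circles pool 1, squares pool 2, bars the mean of 2 pools, grey lines join littermate pools). In Phlda3 both Usp2-KO pools (7.81 and 7.85) sit below both WT pools (8.15 and 8.14), while in Ccng1 and Trp53inp1 Usp2-KO pool 2 alone sits above the other arrays.

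Short genes tended to be lower in Usp2-KO kidney across the whole array, and Phlda3 is short. Its length in the genome stood at percentile 15.1. The difference rose with gene length across 19852 genes (Spearman rho 0.19; genes are not independent of each other). In the 3970 shortest genes the median difference was -0.03 and the range from percentile 5 to 95 was -0.21 to 0.16. The part of gene length in the value of Phlda3 was not tested. By distance between mean-centred values over the 4 arrays, the genes most like Phlda3 among those with a mean log2 value of at least 6 were Spata31d1a (distance 0.04), Hcar2 (0.04) and Gm1673 (0.05). Over 4 arrays such likeness is a weak measure, since 19.1% of all genes were lower in Usp2-KO kidney without overlap of the genotypes.

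Ccng1 and Trp53inp1 stood apart in Usp2-KO pool 2. Ccng1 encodes cyclin G1, which brings a phosphatase to Mdm2. Its log2 value was 11.73 and 11.79 in WT pools 1 and 2, 11.72 in Usp2-KO pool 1 and 11.95 in Usp2-KO pool 2. The last of these is the highest array, and Usp2-KO pool 1 is the lowest, so the genotypes overlap. The difference was 0.08 (SE 0.09, 95% confidence interval -0.13 to 0.28, limma adjusted p = 0.856). Without Usp2-KO pool 2 it was -0.04. Trp53inp1 encodes a stress-induced protein of the nucleus and of autophagy that promotes cell death. Its log2 value was 10.09 and 10.14 in the WT pools, 10.04 in Usp2-KO pool 1 and 10.37 in Usp2-KO pool 2. Again Usp2-KO pool 1 was the lowest and Usp2-KO pool 2 the highest array. The difference was 0.09 (SE 0.10, 95% confidence interval -0.15 to 0.32, limma adjusted p = 0.853), and without Usp2-KO pool 2 it was -0.07. The gap between the Usp2-KO pools was 0.24 for Ccng1 and 0.32 for Trp53inp1, at percentiles 91.8 and 97.4 of that gap over all genes. The gap between the WT pools was 0.06 and 0.05.

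Zmat3 and Aen had small differences, of the same sign in both littermate comparisons. Zmat3 encodes a zinc finger protein that binds RNA and affects its splicing and stability. Its log2 value was 8.60 and 8.62 in the WT pools and 8.70 and 8.67 in the Usp2-KO pools. Both Usp2-KO pools lay above both WT pools by a small margin. The difference was 0.08 (SE 0.07, 95% confidence interval -0.08 to 0.24), with a limma adjusted p of 0.792. Aen, a nuclease that cuts DNA during cell death, had log2 values of 7.79 and 7.78 in the WT pools and 7.77 and 7.76 in the Usp2-KO pools. All 4 arrays lay within 0.034 of each other, the narrowest range of the 7 genes, although the genotypes did not overlap. The difference was -0.02 (SE 0.07, 95% confidence interval -0.18 to 0.14, limma adjusted p = 0.954).

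The sestrins, which restrain the growth kinase complex mTORC1 by binding its regulator GATOR2, gave different values. Sesn2, the family member known as a leucine sensor, had log2 values of 9.74 and 9.93 in the WT pools and 9.72 and 9.64 in the Usp2-KO pools. Both Usp2-KO pools were below both WT pools, but WT pool 1 was only 0.02 above Usp2-KO pool 1. The difference was -0.16 (SE 0.08, 95% confidence interval -0.35 to 0.03), with an unadjusted p of 0.0956 and a limma adjusted p of 0.624. It was -0.02 in the pool 1 littermates and -0.29 in the pool 2 littermates, and without WT pool 2 it was -0.07. Sesn1 had log2 values of 8.77 and 8.80 in the WT pools and 8.83 and 8.74 in the Usp2-KO pools. Its highest and its lowest array were both Usp2-KO pools, and the littermate differences had opposite signs, 0.06 and -0.06. The means differed by 0.0005 (95% confidence interval -0.16 to 0.17, limma adjusted p = 0.998). Sesn3, the third sestrin, which lies on chromosome 9, differed by -0.10 (limma adjusted p = 0.76), with -0.23 and 0.02 in the littermate comparisons. Whether the sestrins differed from each other in their response was not tested.

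**Figure D2:**
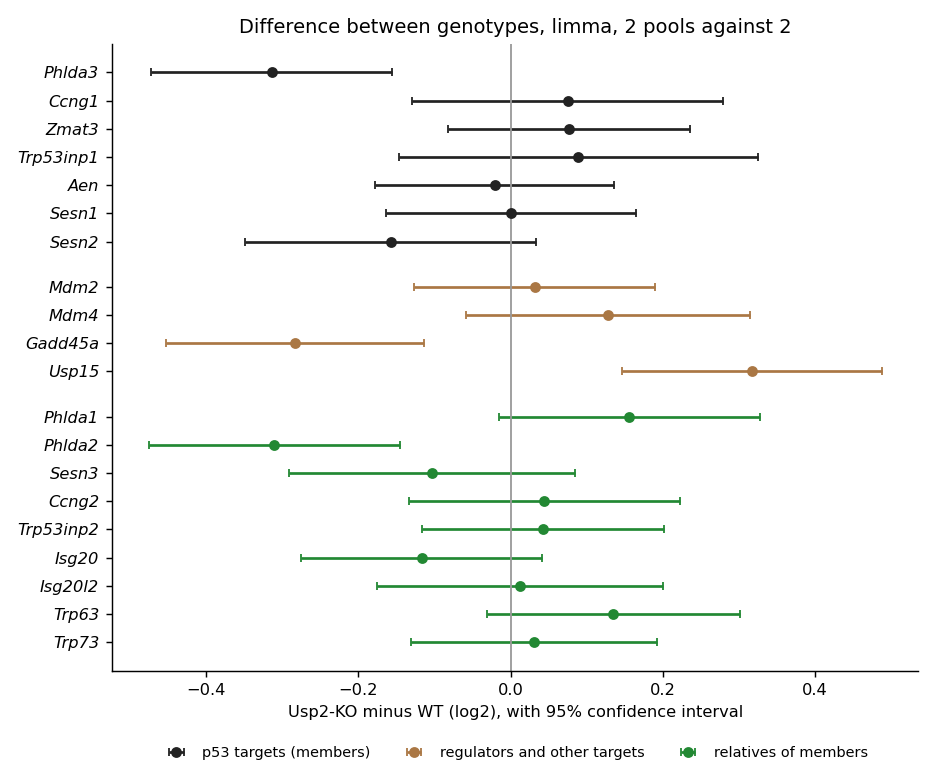
Usp2-KO minus WT on the log2 scale with its 95% confidence interval (limma, 2 pools against 2) for the 7 p53 target genes and for Mdm2, Mdm4, Gadd45a and Usp15. Also shown are relatives of the 7 genes and the Trp53 relatives Trp63 and Trp73. The intervals of Phlda3, Gadd45a and Phlda2 lie below 0 and that of Usp15 above 0; none of these genes passed the adjusted threshold over all genes.

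In Usp2-KO kidney 4 of the 7 genes were higher and 3 lower, with a median difference of 0.0005 against -0.006 over all genes. After repeated quantile normalization or median centring Sesn1 changed sign, which made it 3 higher and 4 lower. No p53 target of the 7 passed an adjusted p of 0.05, and Phlda3 was the 1 with an unadjusted p under 0.05, where 9.11% of all genes had one. The genotypes did not overlap in 4 of them (Zmat3 higher, and Phlda3, Sesn2 and Aen lower), against 38.9% of all genes (19.8% higher and 19.1% lower). The sign was the same in both littermate comparisons for Phlda3, Sesn2, Zmat3 and Aen, again 4 of 7, against 51.5% of all genes. The half-width of the 95% confidence interval was between 0.16 and 0.24 on the log2 scale. These intervals are not adjusted for the number of genes, and the difference a gene needs to pass the adjusted threshold is larger.

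The feedback loop around p53 was read in Mdm2 and Mdm4. Mdm2 had log2 values of 9.15 and 9.12 in the WT pools and 9.15 and 9.18 in the Usp2-KO pools. WT pool 1 and Usp2-KO pool 1 had the same value. The difference was 0.03 (SE 0.07, 95% confidence interval -0.13 to 0.19, limma adjusted p = 0.931). Mdm4 had log2 values of 9.16 and 9.03 in the WT pools and 9.15 and 9.29 in the Usp2-KO pools, with overlap. The difference was 0.13 (95% confidence interval -0.06 to 0.31, limma adjusted p = 0.683), and it came from the pool 2 littermates (0.26, against -0.004 in the pool 1 littermates).

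Other regulators of p53, such as its ubiquitin ligases, deubiquitinases, damage kinases and acetyltransferases, were mostly higher in Usp2-KO kidney, without passing the test. Of 29 measured genes, Mdm4 among them, 22 (75.9%) were higher and 7 lower, with a median of 0.07, against 47.5% higher and a median of -0.006 over all genes. The sign was the same in both littermate comparisons for 13 of the 29, against 51.5% of all genes. Without WT pool 1 or without Usp2-KO pool 1, 19 were higher and 10 lower. Without WT pool 2 or without Usp2-KO pool 2, 25 were higher and 4 lower. None of the 29 passed the adjusted threshold of limma. An unadjusted p under 0.05 was found for 5, all higher, where 5.22% of all genes were higher at that p. After repeated quantile normalization 18 of the 29 were higher. With median centring 4 of the 29 had such a p by limma. The 5 became 3 without WT pool 1, 2 without WT pool 2 and 2 without Usp2-KO pool 2. They became 7 with an intensity trend, with either filter on signal, with crossed pools or when Usp2-KO pool 1 was left out. Usp15, a deubiquitinase that also acts on Mdm2, had log2 values of 8.48 and 8.38 in WT and 8.71 and 8.79 in Usp2-KO pools, which do not overlap. It differed by 0.32 (SE 0.08, limma adjusted p = 0.3). Cop1, a ubiquitin ligase for p53, was higher by 0.20, Rpl5, a ribosomal protein that binds Mdm2, by 0.20, and Brd7, a cofactor of p53, by 0.20, with limma adjusted p-values of 0.456, 0.458 and 0.466. Cop1 has another row, which differed by 0.16. Rpl5 is read by 5 rows, with differences between 0.15 and 0.20, and belongs to a family with near-identical copies, so its assignment is uncertain. The regulators are long genes, with a median at percentile 75.4 of genome length, and in the 3971 longest of all genes the median difference was 0.02. The part of gene length in the list's values was not tested.

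Among other p53 targets, Gadd45a differed most. It encodes a growth arrest protein induced by DNA damage. Its log2 value was 8.01 and 8.13 in the WT pools and 7.77 and 7.80 in the Usp2-KO pools. Both Usp2-KO pools lay below both WT pools, and its length, like that of Phlda3, is short, at percentile 12.5. The difference was -0.28 (SE 0.07, 95% confidence interval -0.45 to -0.11), with an unadjusted p of 0.00432 and a limma adjusted p of 0.326. Polk, a DNA polymerase that copies past lesions, differed by 0.19, Steap3, a ferrireductase, by -0.16, and Pmaip1, which encodes the death protein Noxa, by -0.13, with limma adjusted p-values of 0.496, 0.541 and 0.629. Of the 32 measured genes of this list, Mdm2 among them, 20 were higher and 12 lower, with a median of 0.02, and 16 each way without WT pool 1 or without Usp2-KO pool 1. None of the 32 passed the adjusted threshold of limma. An unadjusted p under 0.05 was found for 1 higher gene (Polk) and 2 lower genes (Gadd45a and Steap3). Of all genes, 5.22% were higher and 3.88% lower at that p. In either direction the share of the list was close to the 9.11% of all genes. Steap3 did not have such a p by limma with the littermate block, which left 1 higher and 1 lower gene.

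**Figure D3:**
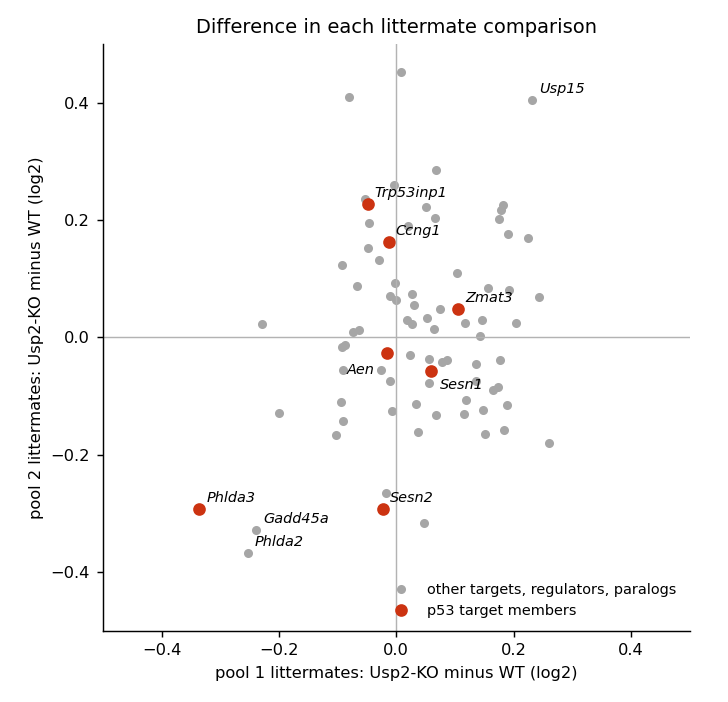
Usp2-KO minus WT on the log2 scale in the pool 1 littermates (horizontal axis) and the pool 2 littermates (vertical axis) for the 7 p53 target genes (red) and the other p53 targets, regulators and paralogs (grey). Phlda3 (-0.34 and -0.29) lies near Gadd45a (-0.24 and -0.33) and Phlda2 (-0.25 and -0.37), while Sesn2, Ccng1 and Trp53inp1 lie away from 0 in the pool 2 littermates only.

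The relatives of the 7 genes and of the 3 without a value included another gene with a difference like that of Phlda3. Phlda2, an imprinted gene known for limiting placental growth, had log2 values of 11.47 and 11.56 in the WT pools and 11.22 and 11.20 in the Usp2-KO pools. The genotypes did not overlap, and the gene is short, at length percentile 10.1. The difference was -0.31 (SE 0.07, 95% confidence interval -0.48 to -0.15), with an unadjusted p of 0.00221 and a limma adjusted p of 0.296. Phlda1, the remaining relative in that family, differed in the other direction, by 0.16 (limma adjusted p = 0.58), with 0.24 and 0.07 in the littermate comparisons. The p53 relatives Trp63 and Trp73 differed by 0.14 and 0.03, and the cell cycle inhibitors related to Cdkn1a by 0.11 (Cdkn1b) and 0.09 (Cdkn1c). Another row of Cdkn1b, of lower mean, differed by 0, and the mean of its rows by 0.057. The relatives of Bax, the death effectors Bak1 and Bok, differed by -0.04 and -0.14. The remaining relatives were Ccng2 (0.04), Trp53inp2 (0.04), and the nucleases Isg20 (-0.12) and Isg20l2 (0.01). None of the 13 relatives passed the adjusted threshold of limma, Phlda2 was the 1 with an unadjusted p under 0.05, a share below the 9.11% of all genes, and 8 were higher and 5 lower (6 and 7 without WT pool 1).

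Genes of cell division, which p53 lowers through Cdkn1a, and markers of tubule injury were read as neighbours of the p53 programme. Of 32 cell division genes, 12 were higher and 20 lower, with a median of -0.02, and 2 had an unadjusted p under 0.05, the replication licensing factor Cdc6 (-0.21) and the spindle checkpoint kinase Bub1b (-0.17), a share below the 9.11% of all genes. Repeated quantile normalization gave 15 higher and 17 lower, and without WT pool 2 it was 16 each way. Over all genes 47.5% were higher. Most of the 32 are dim, with a median log2 level of 6.665 against 7.71 over all genes. Of the 4 among them above the median signal of the array, 2 were higher and 2 lower. Mcm4, of the replicative helicase, differed by 0.15 and the mitotic kinase Aurkb by -0.14. Of 11 injury markers, 3 were higher and 8 lower, with a median of -0.07, and without Usp2-KO pool 1 it was 5 and 6. Lcn2, which encodes NGAL, differed by -0.21, Krt20 by -0.16 and Fga by -0.15, while the secreted chaperone Clu was higher by 0.17. Clu and Lcn2 were the 2 of the 11 with an unadjusted p under 0.05, against 9.11% of all genes. Such a p was found for 1 of the 11 with the littermate block or when Usp2-KO pool 1 was left out, and for 0 by limma without WT pool 1 or without Usp2-KO pool 2. Neither list held a gene past the adjusted threshold of limma.

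**Figure D4:**
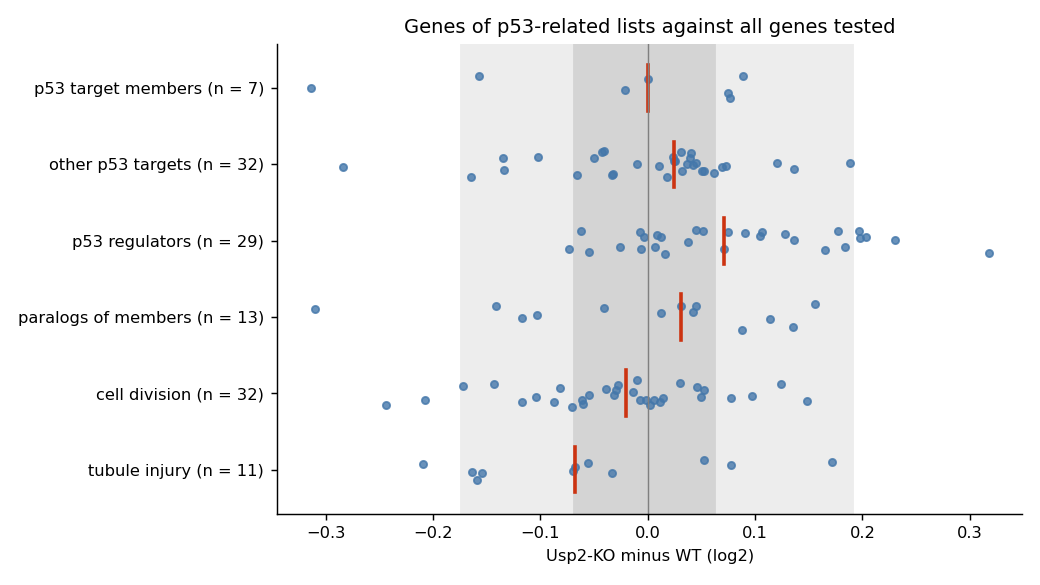
Usp2-KO minus WT on the log2 scale for each gene (points) of the p53-related lists, with each list's median (red bar); dark and light grey mark the range from percentile 25 to 75 (-0.07 to 0.06) and from percentile 5 to 95 (-0.17 to 0.19) of all 19934 genes. The median of the p53 regulators is 0.07 and that of the 7 p53 targets 0.0005; Phlda3 lies outside the wider band.

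The levels of some cell type markers differed between the genotypes, but none passed the adjusted threshold of limma in the fit without a block. With the littermate block 3 distal tubule, 1 intercalated cell and 3 adipocyte genes passed it, where 0.768% of all genes did. In the littermate comparisons Adipoq differed by -0.83 (pool 1) and -0.12 (pool 2), and Cidec by -0.80 and -0.04. Over all genes 47.5% were higher in Usp2-KO kidney. The kidney was recognisable by its markers, with log2 values between 11.94 and 14.05 for 10 proximal tubule genes, whose mean level was 13.15 in both WT pools and 13.17 and 13.15 in the Usp2-KO pools. The mean of 6 distal tubule markers was 10.15 and 10.14 in the WT pools and 10.35 and 10.44 in the Usp2-KO pools, and 4 of the 6 were higher. The calcium transport genes Trpv5 (0.55), Slc8a1 (0.54) and Calb1 (0.44) had the largest differences of these, while the sodium chloride cotransporter Slc12a3 (-0.06) and Pvalb (-0.08) were lower in both littermate comparisons. The mean of 7 principal cell markers was 10.05 and 10.08 in WT and 10.19 and 10.12 in Usp2-KO pools, with 6 of 7 higher. For the thick ascending limb 5 of 6 markers were higher, with a mean of 11.69 in both WT pools and 11.78 and 11.73 in the Usp2-KO pools. The mean of 6 intercalated cell markers was 9.39 and 9.37 in WT and 9.57 and 9.53 in Usp2-KO pools, with 5 of 6 higher. The mean of 6 adipocyte genes was 7.53 and 7.52 in WT pools, 7.05 in Usp2-KO pool 1 and 7.48 in Usp2-KO pool 2, with 5 of 6 lower. All 5 pancreatic acinar genes were lower, with means of 6.73 and 6.67 in the WT pools and 6.57 and 6.56 in the Usp2-KO pools. Of these 5, 3 had the same sign in both littermate comparisons. Leukocyte markers were lower in 7 of 8 (means 8.42 and 8.51 in WT, 8.43 and 8.38 in Usp2-KO pools). Only 3 of the 8 had the same sign in both littermate comparisons, and Csf1r, counted as lower, differed by -0.001. Endothelial markers were lower in 5 of 6, with the same sign in both littermate comparisons for 1 of the 6. Of 4 podocyte markers 2 were higher and 2 lower, and of 6 stromal markers 3 were higher and 3 lower. The part of these cell types in the values of Phlda3 was not tested, and the files hold no detection calls that would set any marker at 0.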

How the data were processed

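RNA of whole kidney was measured on 4 Affymetrix whole-transcript arrays, 2 pools of 3 mice per genotype, from 300 ng of RNA each, per the labels' protocols. The deposited values are on the log2 scale, and the submitters' processing notes name RMA as the authors' method. It equalises the distributions of the arrays and so hides changes common to all genes; its version is not given in the sources used here. Of 28270 rows, 21780 had 1 gene symbol in the platform's annotation, 1617 several and 4873 none. The row of highest mean stood for each of 19934 genes, with no filter on signal.

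Usp2-KO minus WT was fitted over all genes with limma 3.58.1 (lmFit, eBayes) in R 4.3.3, adjusted by Benjamini-Hochberg, with 0.05 as threshold. The prior had 6.87 degrees of freedom beside 2 of the arrays. With the littermate pools as a block it had 90.6 beside 1 of the arrays. The fit without a block was tested on simulated data. The pairing comes from the series' design text, which keeps littermates together; the deviations of same-numbered pools correlated at -0.12 across genes. The alternatives were that block, an intensity trend, a robust prior, filters on signal, the mean of all rows, repeated quantile normalization, median centring and each pool left out. The members and lists were chosen with earlier results of these data known. Named were all members, Usp2, Mdm2, Mdm4, all relatives, up to 4 genes of smallest p in each other p53 list, and the 3 genes most like the member of smallest p; other genes were named after their values were seen. Promoter sequences are RefSeq's (GRCm38.p6). Figures were drawn with matplotlib 3.10.9.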

Additional observations from a re-analysis of the deposited data

How the results depend on the processing

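The count of genes past the adjusted threshold, 1 in the reported limma fit, was 153 with the littermate pools as a replicate block, 18 with an intensity trend, 7 with genes above the median signal, 7 with genes of mean log2 value at least 6, 2 at an adjusted p under 0.10, and between 1 and 2 when a pool was left out. The count of the 7 p53 targets past it was 0 in each of these. With an unadjusted p under 0.05 there was 1 of them, and between 1 and 2 when a pool was left out, Phlda3 in each case, joined by Sesn2 (-0.25) without WT pool 1 and by Trp53inp1 without Usp2-KO pool 1. Their median difference was between -0.04 and 0.02 with a pool left out. With the crossed pairing of pools, chosen after the data were seen, 1 gene passed. Of the values of the 7 targets under the alternatives, 85 of 91 kept their direction and side of the threshold. Part of this was fixed in advance. A block, an intensity trend, a robust prior, a filter or the mean of rows cannot change the difference of these genes, each with 1 row. Since 0 of the 7 passed in any setting, the side of the threshold was never crossed. Sesn1 turned to -0.025 with repeated quantile normalization and to -0.0013 with median centring, and Isg20l2 to -0.025 with the former. With a pool left out, the ranges were -0.043 to 0.193 for Ccng1, -0.0725 to 0.251 for Trp53inp1, -0.0425 to 0.0435 for Sesn1, -0.0055 to 0.0665 for Trp73, -0.033 to 0.122 for Ccng2 and -0.0575 to 0.0815 for Isg20l2. Apart from fewer genes or arrays tested, the cause of these changes was not tested. The log2 values carry no signal over background, so how far dim rows understate a difference is unknown.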
